A study of Mus musculus with 11 samples.

Results

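The regions described here are the 5959 stretches of the mouse genome that carried a called peak in each of 3 Foxc1 mutant libraries and in none of 3 control libraries, in a CUT&RUN experiment on Myc-tagged RARα. They were chosen by merging the full peak lists of the 6 Myc-tag libraries on chromosomes 1 to 19 and X wherever peaks shared at least 1 base. Merging gave 805192 regions, and those that overlapped a peak of every mutant list and of no control list were kept. The rule used the presence of peaks in these same libraries, so the difference between the groups inside the chosen regions is a description and carries no test.

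The series profiled cortical progenitors of embryonic day 14 mice, isolated with magnetic beads against Prom1, a membrane protein that dividing neural precursors carry. The 3 control and the 3 mutant libraries were made with an antibody against the Myc tag under the same digitonin concentration of 0.05%, and a further 5 libraries with an isotype antibody were not analysed here. The labels give the genotypes only as control and Foxc1 mutant. The strain, the Foxc1 alleles, the way the tagged receptor was expressed and the number of embryos behind a library were not given in the sources used here, so any p-value measures only the spread between these libraries, which may be technical. A library is named below by its group and its replicate number.

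RARα, a retinoic acid receptor, sits on DNA as a pair with RXR, usually at direct repeats of a short hexamer, and switches from repressing to activating nearby genes when retinoic acid is bound. Foxc1 is a transcription factor of the meninges, the membranes around the brain, which are a source of retinoic acid for the developing cortex. CUT&RUN cuts and releases the DNA next to an antibody-bound protein in permeabilised nuclei, so that sequenced fragments pile up where the protein sits. SEACR, the caller named in the submitters' processing notes, turns runs of covered bases into peaks, each with a total signal and a maximum signal.

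A few of the chosen regions lay over the start of an annotated gene, and the sequences of 6 such starts are printed because they are the places where the regions can be read against the receptor's motif. Each is the RefSeq promoter window of build GRCm38.p6, 250 bases before to 50 bases after the start, 5′ to 3′ on the gene's strand. Capitals mark the receptor's hexamer on either strand, either as AGGTCA itself or in a relaxed spelling, of which GGGTCA is one example and AGTTCA is another. Ugt1a1, Hjurp, C130071C03Rik, Gm35732 and Hbb-y are among the promoters under the regions of highest rank, and Crbn was added after its match was seen. 4931408C20Rik, Mroh2a, Gm40904, Wfdc11 and Ifi44l rank among them too, held no repeat of the hexamer and are not printed. Over all promoter windows touched by chosen regions 2.31% held a repeat, so the printed set does not show how common repeats are.
Ugt1a1, chr1:88211709-88212008, plus strand: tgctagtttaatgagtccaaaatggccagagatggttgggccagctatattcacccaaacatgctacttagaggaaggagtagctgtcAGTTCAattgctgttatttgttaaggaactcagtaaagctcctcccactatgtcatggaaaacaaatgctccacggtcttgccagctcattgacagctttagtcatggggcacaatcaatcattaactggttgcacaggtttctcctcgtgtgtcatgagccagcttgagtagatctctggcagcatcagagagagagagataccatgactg
Hjurp, chr1:88277530-88277829, minus strand: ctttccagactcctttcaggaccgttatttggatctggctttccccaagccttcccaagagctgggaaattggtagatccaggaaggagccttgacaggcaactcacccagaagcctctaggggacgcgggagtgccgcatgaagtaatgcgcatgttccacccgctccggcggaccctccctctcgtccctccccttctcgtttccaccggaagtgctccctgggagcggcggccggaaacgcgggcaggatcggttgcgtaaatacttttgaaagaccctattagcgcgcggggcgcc
C130071C03Rik, chr13:83732243-83732542, plus strand: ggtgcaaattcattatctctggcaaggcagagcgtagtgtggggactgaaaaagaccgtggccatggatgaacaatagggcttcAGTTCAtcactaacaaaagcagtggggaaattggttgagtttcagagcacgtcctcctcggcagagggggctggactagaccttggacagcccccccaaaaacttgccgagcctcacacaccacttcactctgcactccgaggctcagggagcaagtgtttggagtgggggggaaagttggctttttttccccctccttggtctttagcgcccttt
Gm35732, chr13:31969601-31969900, plus strand: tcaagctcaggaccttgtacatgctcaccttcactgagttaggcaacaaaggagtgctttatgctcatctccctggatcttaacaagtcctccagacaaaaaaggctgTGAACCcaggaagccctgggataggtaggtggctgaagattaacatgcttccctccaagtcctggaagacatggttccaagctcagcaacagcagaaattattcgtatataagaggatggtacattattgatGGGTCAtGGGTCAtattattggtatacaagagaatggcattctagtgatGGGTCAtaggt
Hbb-y, chr7:103853158-103853457, minus strand: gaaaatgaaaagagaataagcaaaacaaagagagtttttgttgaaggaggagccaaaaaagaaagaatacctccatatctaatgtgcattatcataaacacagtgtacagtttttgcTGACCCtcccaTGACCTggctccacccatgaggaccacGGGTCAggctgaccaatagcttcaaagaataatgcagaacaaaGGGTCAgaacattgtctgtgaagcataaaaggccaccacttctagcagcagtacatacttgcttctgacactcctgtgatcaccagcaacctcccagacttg
Crbn, chr6:106800038-106800337, minus strand: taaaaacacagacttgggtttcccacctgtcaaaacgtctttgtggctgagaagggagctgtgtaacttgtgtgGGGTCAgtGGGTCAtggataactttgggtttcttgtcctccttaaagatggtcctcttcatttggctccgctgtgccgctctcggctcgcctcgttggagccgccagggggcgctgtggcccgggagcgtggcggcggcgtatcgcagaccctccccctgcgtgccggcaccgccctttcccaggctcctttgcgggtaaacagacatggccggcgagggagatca
In this set Gm35732 held 2 hexamers with 1 base between them, Crbn held 2 with 2 bases between them and Hbb-y held 2 with 5 bases between them, each pair with at least 1 hexamer in the relaxed spelling. Hjurp held no hexamer, and Ugt1a1 and C130071C03Rik held 1 each.

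The 6 lists differed widely in length, which sets how often any place can be called in every mutant list and in no control list. Control replicate 1 held 86444 peaks over 215 Mb, control replicate 2 held 11709 over 3.87 Mb and control replicate 3 held 30054 over 8.60 Mb. Mutant replicate 1 held 54091 peaks over 38.8 Mb, mutant replicate 2 held 410453 over 328 Mb and mutant replicate 3 held 513260 over 417 Mb. The groups overlapped, since control replicate 1 covered more of the genome than mutant replicate 1. The log2 of the covered Mb averaged 4.27 ± 3.07 over the control lists (SD, n = 3) and 7.45 ± 1.89 over the mutant lists (SD, n = 3). The mutant lists were thus longer by 3.18 on the log2 scale, or 9.05-fold, and a two-sided exact permutation test gave p = 0.2, where 0.1 is the smallest it can give. Read numbers were not given in the sources used here, so the depth behind each list is unknown.

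Of the 805192 merged regions, 74.1% were called in a single list and 9049 were called in every mutant list. The 5959 chosen regions were 65.9% of those 9049, and 0.74% of all merged regions. The other 3090 also held a control peak. Control replicate 1 supplied a peak in 2889 of these 3090 and was the only control to do so in 2721, while control replicate 3 had one in 262 and control replicate 2 in 119. The absence of a control peak therefore rested mostly on the single long control list. Peaks of that list had a median width of 2327 bases, against 679, 736 and 737 in mutant replicates 1, 2 and 3. Mutant replicate 1 was the shortest mutant list, and 11.4% of its peaks fell in chosen regions, against 1.63% for mutant replicate 2 and 1.35% for mutant replicate 3.

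The opposite pattern was rare. Only 25 regions, 0.0031% of the merged regions, had a peak in every control list and in no mutant list, and 144 regions had a peak in every control list at all. The 2 short control lists cover 0.151% and 0.334% of the chromosomes, and mutant replicates 2 and 3 cover 12.7% and 16.2%, so the counts in the 2 directions are not comparable as they stand. When each list was cut to the 11709 peaks of highest total signal, 75 regions were in every mutant and no control list and 9 were the reverse. The 75 formed 32 groups when those less than 100 kb apart were joined. When each list was cut to the same covered length of 3.87 Mb the counts were 47 and 2. That cut kept 554, 11709 and 9590 peaks of control replicates 1, 2 and 3. It kept 4108, 1747 and 1457 of mutant replicates 1, 2 and 3, so these 2 counts are not like for like either.

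How often the 3 mutant lists met, beside how often any place touched them, was described with windows laid end to end. Over 3786184 windows of 679 bases, the median width of a peak of mutant replicate 1, 7.56% touched both mutant replicates 2 and 3. Over windows of the same width centred on the 54091 peaks of mutant replicate 1, 9.21% did, a ratio of 1.22. Among windows that touched both, 85.5% of the end-to-end windows and 84.6% of the peak-centred windows had no control peak. A peak of mutant replicate 1 was also more often over a peak of control replicate 1 than an end-to-end window was, 12.5% against 10.6%. Taken 1 list at a time, peak-centred windows met mutant replicates 2 and 3 each 1.13 times as often as end-to-end windows did, and the long control list 1.18 times as often.

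The same was seen when each library was left out of the rule in turn and used afterwards as a reading that the rule had not seen. Without control replicate 1, 7289 regions were chosen, and 18.2% of them touched a peak of that left-out control, against 12.6% of all merged regions of the other lists. Without mutant replicate 1, 112005 regions were chosen and 5.01% touched its list, against 4.09% of all regions. Without mutant replicate 2, 35.9% of 14546 touched it against 30.6%, and without mutant replicate 3, 44.2% of 11551 touched it against 37.7%. For control replicates 2 and 3 the values were 1.01% of 6020 against 0.723%, and 2.02% of 6082 against 1.62%. Chosen regions are wider than most merged regions, and on midpoints alone, which width does not touch, the ratio was 1.25 for control replicate 1, 0.313 and 0.472 for control replicates 2 and 3, and 1.06, 1.12 and 1.11 for mutant replicates 1, 2 and 3. The held-out control with the long list was met at least as often, relative to all regions, as a held-out mutant library, and the ratios for the short control lists rest on few midpoints.

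**Figure D1:**
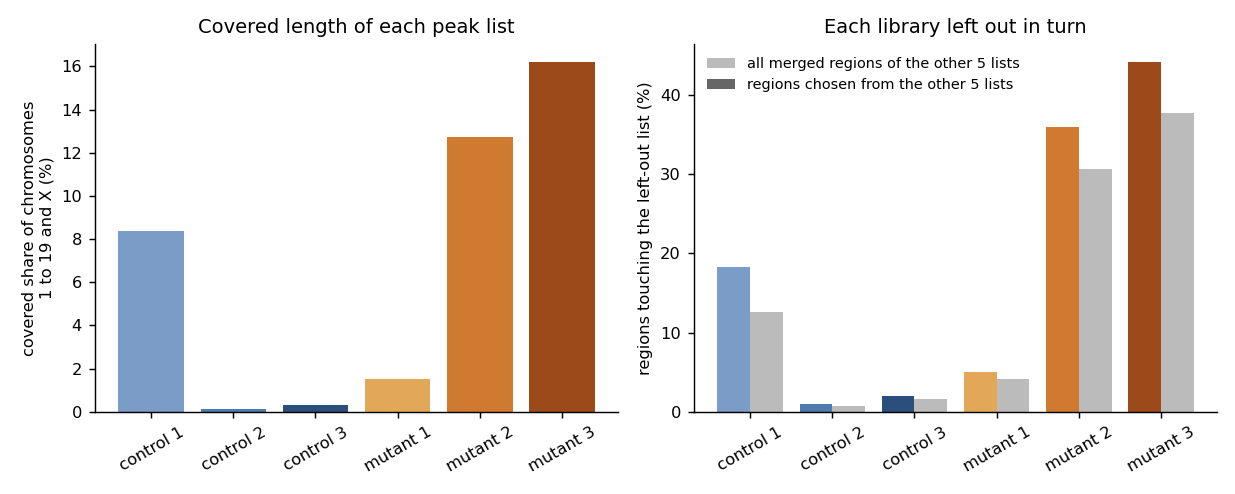
Left: share of chromosomes 1 to 19 and X covered by each of the 6 peak lists, in percent (bars, 1 per library). Right: for each library left out in turn, the percent of the regions chosen from the other 5 lists that touch its peaks (coloured bars) beside the percent of all merged regions of the other 5 lists (grey bars); in every library the coloured bar stands above the grey one, control replicate 1 included at 18.2% against 12.6%.

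The chosen regions were as low as most peaks of the mutant lists. Their median width was 1693 bases (quartiles 1352 and 2163, range 384 to 25390), and together they covered 11.1 Mb, 0.433% of the chromosomes. Heights are given in steps, the smallest unit of signal found in a library, since the scaling of the deposited signal is not given and 1 step was worth 0.0500 to 1.63 units depending on the library. The median height of the tallest peak in a chosen region was 4 steps in each mutant library, the same as the median of all peaks of each list. In 483 regions the lowest of the 3 mutant peaks was 2 steps high, in 3213 it was 3 and in 2263 it was 4 or more. Control replicate 1, on which the absence of a control peak mostly rested, had a median height of 10 steps. Of its peaks 0% stood at 2 or 3 steps, against 36.1%, 29.7% and 24.1% of all peaks in mutant replicates 1, 2 and 3. A place without a peak in that control list may therefore still have held signal of 2 or 3 steps there, which was not tested. Across the 5959 regions the heights in different mutant libraries were close to unrelated, with Spearman's rho of 0.03 between replicates 1 and 2, 0.01 between 1 and 3 and 0.08 between 2 and 3.

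The 3 mutant peaks did not always share a base. A base covered by all 3 mutant lists was present in 3334 regions (55.9%), with a median of 263 shared bases, and in the other 2625 regions the peaks were joined only through a neighbour. In 4615 regions (77.4%) each mutant library contributed a single peak. Requiring a peak of mutant replicate 1 to be covered over at least 50% of its length by each of the other mutant lists, with no control peak, left 1539 peaks.

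A small tail was higher than the lists as a whole. Peaks of at least 10 steps made up 0.319%, 1.28% and 1.19% of the chosen regions in mutant replicates 1, 2 and 3, against 0.105%, 0.155% and 0.234% of all peaks. A region counts its tallest peak here while the lists count every peak. Only 15 regions reached 10 steps in all 3 mutant libraries, 104 reached it in any, and 26 were in the top 1% of all 3 lists by height.

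**Figure D2:**
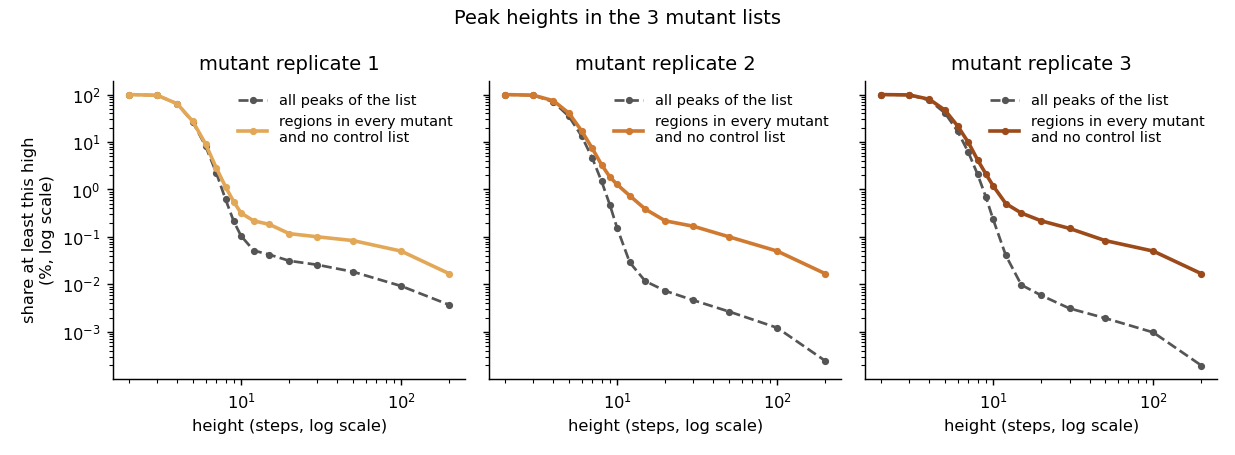
Percent of peaks or regions at least as high as the value on the x axis, in steps, for mutant replicates 1, 2 and 3 (both axes logarithmic; lines join fixed heights). Solid lines are the 5959 regions by their tallest peak and dashed lines all peaks of the list; in mutant replicate 1 the lines nearly coincide up to 6 steps, in mutant replicates 2 and 3 the solid line is the higher one from 4 steps on, and at 10 steps the solid lines stand at 0.319%, 1.28% and 1.19% against 0.105%, 0.155% and 0.234%.

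Some regions lay close to the border of the rule. The median distance from a chosen region to the nearest control peak was 6058 bases (quartiles 2428 and 12517, largest 102001). A control peak lay within 1 kb of 659 regions (11.1%), within 5 kb of 2580 (43.3%) and within 25 kb of 5523 (92.7%), and the nearest one belonged to control replicate 1 in 71.2%. No distances from other places stand beside these, so they are not shown to be particular to the chosen regions. Just inside the border, chr9:18821545-18822800 stood 1 base from a control peak and had mutant heights of 5, 2 and 2 steps, and chr3:125495336-125496492 in Ndst4, a heparan sulfate sulfotransferase gene, stood 2 bases away with 5, 6 and 4 steps. Just outside it, chr9:8741192-8744391 was lost through 2 bases shared with a control peak 2 steps high, and chr14:20999559-21001883 in Vcl, which encodes the adhesion protein vinculin, was lost through 5 bases. In all, 62 chosen regions lay within 100 bases of a control peak, and 35 regions of every mutant list were lost through at most 100 shared bases.

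The 12 regions of highest rank, ordered by the worst of their 3 within-list percentiles, were unlike the rest in height. The highest was chr2:5378622-5379384 in Camk1d, a calcium and calmodulin dependent kinase gene, with 246, 75 and 88 steps in mutant replicates 1, 2 and 3. A region in Cdk8, the kinase of the Mediator complex, at chr5:146260983-146261366 had 183, 63 and 53 steps. The region chr6:103649061-103649453 in Chl1, a neural cell adhesion gene, had 70, 126 and 106 steps. At chr2:98664746-98665252, in no protein-coding gene, the heights were 118, 309 and 267 steps, and a control peak lay 533 bases away. In 2 of these 4 regions mutant replicate 1 was the highest library and in the other 2 it was the lowest, so the order of the libraries was not fixed.

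The remaining 8 of the 12 included chr9:3000006-3001530 with 56, 106 and 100 steps, chr6:49236454-49236906 with 46, 14 and 31 and chrX:112370084-112371744 in Apool, a gene for a mitochondrial cristae protein, with 26, 55 and 44. The other 5 were chr17:3081424-3082545, chr9:3001950-3002655, chr11:3126833-3128835, chr11:3129012-3130217 and chr16:3238412-3250792. Of the 12, 6 lay within 1 Mb of the first called base of their chromosome, the end where mouse chromosomes carry their centromere, and 4 touched a protein-coding gene. The 6 in that first Mb were not all separate places. The region chr9:3000006-3001530 lay close to chr9:3001950-3002655, and chr11:3126833-3128835 lay close to chr11:3129012-3130217. Summed over chromosomes 1 to 19 and X, 53 chosen regions lay in the first Mb. Over the whole of these chromosomes the chosen regions averaged 2.32 per Mb. No list of artefact-prone regions was used here, and how well reads map at these places was not tested.

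The chosen regions were mostly scattered. Grouping those less than 100 kb apart gave 4439 loci, of which 3352 held a single region, 273 held 3 or more and 22 held 5 or more. The 8 loci with most regions held 87, 1.46% of all.

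These dense stretches had a pattern of their own. The stretch with most regions, 18, was chr4:147334681-147611403 over Zfp978, Zfp982 and Zfp985, genes of a large zinc finger family, and mutant replicates 1, 2 and 3 covered 14.7%, 55.0% and 41.4% of it with peaks. Control replicate 1 covered 10.9% of it, control replicate 3 0.241% and control replicate 2 had no peak. A second zinc finger stretch, chr4:146454465-146537082 over Zfp992, Zfp981 and Zfp993, held 10 regions, was covered by 24.8%, 57.0% and 36.1% in the mutant lists, and had no control peak. Another, chr7:43127760-43197592 at Zfp936, held 10 regions with 19.3%, 41.6% and 28.8% in mutant replicates 1, 2 and 3 against 26.9% in control replicate 1, so there the long control list covered more than the shortest mutant list did.

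In the stretches at Ugt1a and near Prl2c3 the chosen regions ran almost without a break. The stretch chr13:12815615-12943060, 127 kb long with no protein-coding gene and 15521 bases from the prolactin family gene Prl2c3, held 16 regions that filled 94.1% of it. Mutant replicates 1, 2 and 3 covered 47.2%, 88.9% and 82.0% of it, where the same lists cover 1.51%, 12.7% and 16.2% of all chromosomes, and none of the control lists had a peak there. Control replicate 1 covers 8.36% of the chromosomes. The stretch chr1:88210965-88310924 held 7 regions filling 93.5% of it, over the shared 3′ part of the Ugt1a genes, which encode enzymes that attach glucuronic acid to bilirubin and drugs, and over Mroh2a, Hjurp, a histone chaperone of the centromere, and Trpm8, the cold-sensing channel. The mutant lists covered 33.2%, 92.8% and 88.4% of it and the control lists none. The signal per base there, divided by the same library's signal per base over all chromosomes, was 21.3, 14.3 and 9.42 in mutant replicates 1, 2 and 3, and at the stretch near Prl2c3 it was 35.0, 12.7 and 7.91.

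Stretches at Smok2a and Smok2b, sperm motility kinase genes (chr17:13206051-13239863, 7 regions), at Mup5, a major urinary protein gene (chr4:61819997-61857605, 7 regions), and near Btbd35f25 (chrX:31732026-31780827, 7 regions) also had no control peak. Mutant replicates 1, 2 and 3 covered 34.7%, 65.5% and 65.4% of the Smok2 stretch, 14.1%, 47.8% and 51.1% of the Mup5 stretch and 24.2%, 47.3% and 52.1% of the stretch near Btbd35f25. The chitinase-like stretch at Chil3, Chil4 and Chil6, chr3:106144013-106582134 with 12 regions, differed, since control replicate 1 covered 24.6% of it against 4.36%, 30.1% and 33.2% in the mutant lists. The stretch of 7 regions in Ptprd, a receptor phosphatase of synapses, was covered by 3.02%, 23.7% and 27.9% in the mutant lists and 9.07% in control replicate 1. Relative to the share that each list covers of all chromosomes, mutant replicates 2 and 3 stood at 1.86 and 1.72 times and control replicate 1 at 1.09 times. The Zfp, Ugt1a, Smok2, Mup and Chil genes belong to families of related copies that lie side by side. How reads that fit several copies were placed was not given, and its part in these values was not tested. The strain of each group was not given either, and how many copies of these stretches each group's genome carries was not measured, so neither the cover without control peaks nor the raised signal per base can be read as binding alone.

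**Figure D3:**
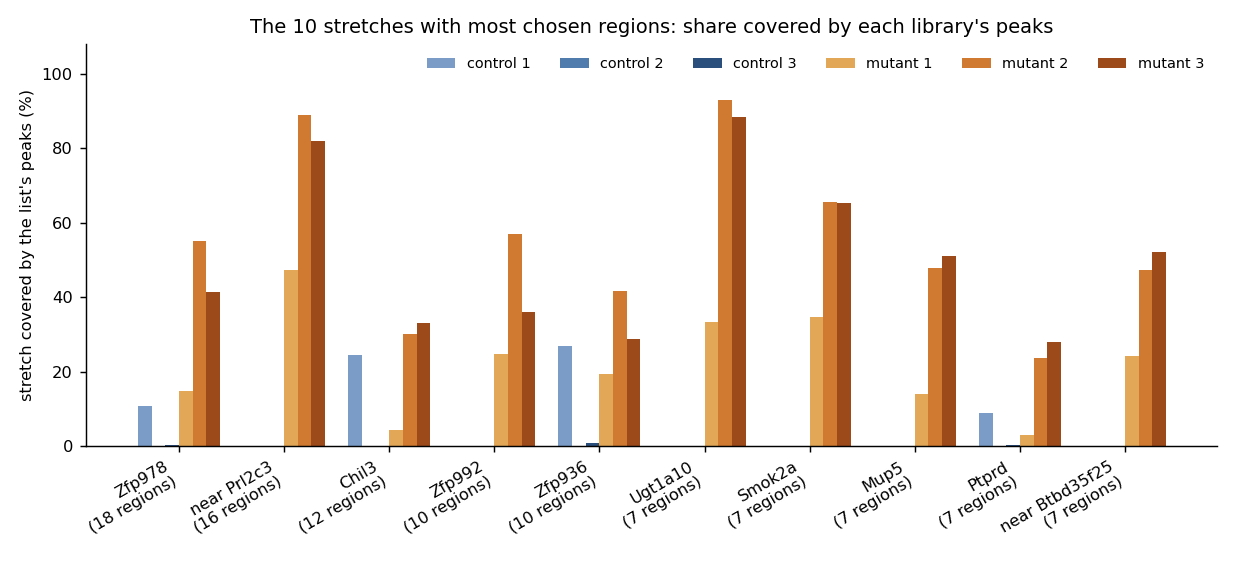
Share of each stretch covered by the peaks of each library, in percent, for the 10 stretches with most chosen regions, labelled by their first or nearest gene (6 bars a stretch, 1 per library, no error bars since each is 1 list). The stretches near Prl2c3 and at Ugt1a10 reach 88.9% and 92.8% in mutant replicate 2 with no control bar, while Chil3, Zfp936, Zfp978 and Ptprd have a bar for control replicate 1.

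Along the chromosomes the density was even, apart from X. Autosomes held between 1.85 (chromosome 19) and 2.98 (chromosome 3) chosen regions per Mb, with a median of 2.46, and X held 116 regions, 0.691 per Mb, so that the autosome median was 3.55 times higher. Peaks per Mb on X relative to the autosome median were 0.581, 0.585 and 0.586 in mutant replicates 1, 2 and 3. In control replicates 1, 2 and 3 the ratios were 0.326, 0.940 and 1.57. The mutant libraries were close to each other, and the control libraries lay both below and above them. Of the regions on X called in every mutant list, 82.9% had no control peak, against 65.9% over all chromosomes.

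**Figure D4:**
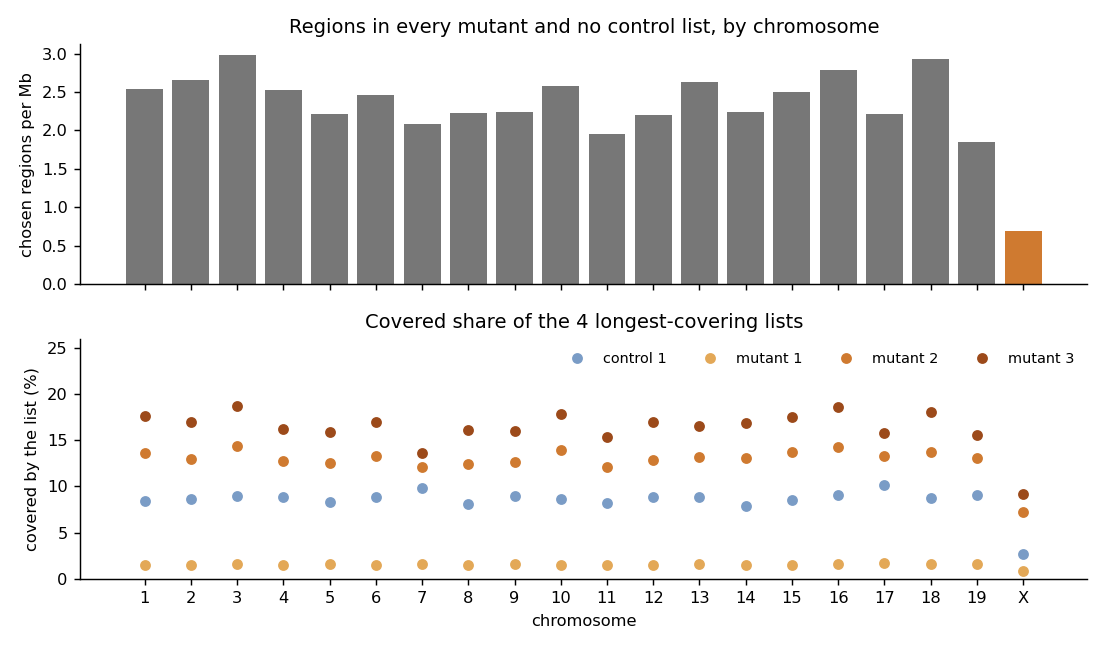
Top: chosen regions per Mb on each chromosome (bars, X in orange). Bottom: percent of each chromosome covered by the peak lists of control replicate 1 and mutant replicates 1, 2 and 3 (points, 1 per library); X stands lowest in both panels, at 0.691 regions per Mb against an autosome median of 2.46.

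The position relative to genes, which the rule did not use, was close to that of any stretch of the chromosomes. The midpoint lay in the span of a protein-coding gene for 40.8% of chosen regions, 43.2% of the regions of every mutant list with a control peak, 41.4% of the regions of mutant replicates 2 and 3 only, 41.1% of all merged regions and 40.0% of the end-to-end windows. Within 1 kb of a transcription start the shares were 2.16% (95% exact binomial interval 1.81 to 2.57, for counting error only), 2.78%, 2.10%, 2.19% and 2.15% in the same order. The chosen regions thus showed no more midpoints at gene starts than windows laid end to end did. Touching a 1 kb window at either gene end was more frequent, at 5.19% against 3.97% of the windows, and regions of every mutant list with a control peak reached 10.6%, but these classes differ in width, with medians of 1693, 679 and 3537 bases.

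At the level of genes, 2141 of 21631 protein-coding genes, 9.9%, had a chosen region inside the gene or within 5 kb of it. The share followed length: it was 2.82% in a decile of short genes (median 5.84 kb) and 42.5% in the longest decile, with a median length of 188 kb. Genes with a chosen region had a median length of 86.6 kb, against 17.3 kb for all. Most of these genes were not free of control peaks, since 87.8% had a peak of control replicate 1 in the same span and 91.7% a peak of any control, which left 177 without one.

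The genes with most regions included very long genes and a few short ones. Ptprd held 18 regions in 2271 kb, beside 105, 13 and 25 peaks of control replicates 1, 2 and 3 and 53, 523 and 725 peaks of mutant replicates 1, 2 and 3. Lsamp, a cell adhesion gene of the limbic system, held 10, Ccser1 9, Lrp1b, a lipoprotein receptor gene, 8, and Nrg3, Gpc5 and Rbfox1, a neuregulin, a glypican and a splicing factor gene, 7 each. Foxp2, a transcription factor of the developing cortex, and Gria4, an AMPA receptor subunit gene, held 6 each. Zfp936, 77.9 kb long, held 10, and Mup5 and Zfp981, 26.7 and 37.4 kb long, held 6 each. Of these, 9, 5 and 5 touched the gene itself, and the others lay within 5 kb. Per length the order was another, with regions in the gene or within 5 kb divided by the length of the gene alone. Among genes with at least 3 regions the densest were then Mucl2, Smok2b, Smok2a, Mup5, Chil3 and Zfp981. Mucl2 had 86.8 regions per 100 kb, Zfp981 16.0 and Ptprd 0.793. Such a measure raises the values of short genes. Only 1 of the 3 regions of Mucl2, 3 of the 5 of Smok2b and 1 of the 4 of Smok2a touched the gene itself.

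Of the 11 genes taken from the study's title and its pathways, 1 (9.09%) had a chosen region, close to the 9.9% of all protein-coding genes, so the count says nothing particular about them. Among Sox2, Notch1, Hes1, Hes5, Dll1, Rara, Rarb, Cyp26a1, Cyp26b1, Dhrs3 and Foxc1, only Rarb had one, at chr14:16728769-16729905 inside the gene, with 3, 5 and 4 steps in mutant replicates 1, 2 and 3 and a control peak 3174 bases away. Rarb is a retinoic acid receptor gene and a classical target of the pathway, and at 651 kb it also held 26, 1 and 7 peaks of control replicates 1, 2 and 3 and 12, 97 and 143 of mutant replicates 1, 2 and 3. Sox2, a transcription factor of neural progenitors, had 0 peaks in mutant replicate 1 and 3 and 5 in mutant replicates 2 and 3, with none in any control list. Notch1, the receptor, had 1 peak in control replicate 1 and 0, 7 and 5 in mutant replicates 1, 2 and 3. Its effector Hes1 and its ligand Dll1 had none in controls or mutant replicate 1, with 2 and 3 peaks for Hes1 and 2 and 5 for Dll1 in mutant replicates 2 and 3. Hes5, another effector, had 1 peak in each mutant list and 1 in control replicate 1, but the mutant peaks did not merge into a chosen region. Cyp26a1, which encodes an enzyme that breaks down retinoic acid, had 0, 1 and 3 peaks in mutant replicates 1, 2 and 3, and Cyp26b1, of the same family, had 1, 3 and 4 beside 1 in control replicate 1. Mutant replicate 1, the shortest mutant list, had a peak at Rara, Rarb, Dhrs3, Hes5 and Cyp26b1 and at none of the other 6.

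Gene lists taken from known roles gave shares that can be read against the 9.9% of all genes and against gene length. In the retinoic acid list 3 of 24 genes (12.5%, median length 32.8 kb) had a chosen region. Rarb was among them, and so was Rdh10, a retinol dehydrogenase gene, with 2, 3 and 6 steps in mutant replicates 1, 2 and 3 at a region outside the gene that also touches Rpl7. In the Notch list it was 3 of 36 (8.33%): Mib1, which encodes an E3 ligase for ligands, with 5, 4 and 5 steps, Maml3, a coactivator gene, with 3 regions, and Notch4 with 3, 5 and 4 steps. Of 19 Sox genes 2 had one, the long genes Sox5 and Sox6, and of 22 radial glia genes 4 had one, Zbtb20, Pax6, Tnc and Slc1a3. The neurogenesis list had 4 of 24 (16.7%), Foxp2, Neurod6, Foxp1 and Elavl4, and the Wnt list 5 of 25 (20%), Lef1, Tcf7l2, Apc, Gsk3b and Lrp6. Cell cycle genes had 3 of 23, Ccnd3, Cdk6 and Ccnb1, and housekeeping genes 1 of 24.

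Higher shares stood in lists of long genes. The axon guidance list had 15 of 26 (57.7%, median length 324 kb), with Robo1 holding 6 regions and Robo2 5, both receptors for Slit proteins, and Slit3 2. The list of synaptic adhesion and other long neuronal genes had 30 of 30 (100%, median length 1198 kb), Nrxn3, Csmd3 and Magi2 with 5 regions each and Opcml with 4. With 5 kb windows around the gene ends in place of the gene, it had 1 of 30 (3.33%) and the axon guidance list 4 of 26 (15.4%), where 3.87% of all protein-coding genes had one. Per Mb of gene with 5 kb on each side, the long neuronal list had 2.64 regions, the axon guidance list 3.33 and the neurogenesis list 4.26. Foxp2 alone held 6 of the 11 neurogenesis regions. The retinoic acid list had 1.47, from 3 regions, and the Notch list 2.16, from 5 regions, beside the autosome median of 2.46 per Mb. Counts this small do not set either list apart from that median. Over the 26 lists the values ran from 0, for meningeal fibroblast and Hox genes, to 11.0 for erythroid genes, the last from 2 regions.

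Marker genes of other cells of the embryonic head were counted as well, although a peak at a marker gene does not measure its expression. None of 16 genes of meningeal fibroblasts (median length 10.3 kb) had a chosen region. In the length decile with a median of 9.66 kb, 2.87% of all protein-coding genes had one. Of 14 genes of vessel cells (median length 40.1 kb) 4 had one (28.6%), Tek, Pdgfrb, Flt1 and Kdr. Of 12 microglial genes Aif1 had one (8.33%), of 12 interneuron genes Gad1 (8.33%), and of 11 erythroid genes Hbb-y and Hbb-bs (18.2%). The share over all protein-coding genes was 9.9%. These lists are small and differ in gene length, so their shares are not read as a result about cell types. Whether such cells contributed to the lists was not tested.

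Clustered gene families differed widely. Zfp zinc finger genes had 55 of 397 (13.9%) and Ugt genes 12 of 22 (54.5%), the latter from 4 regions, since the Ugt1a genes share their last exons and 1 region of 25390 bases counts for 9 of them. Clustered protocadherin genes had 15 of 57 from 3 regions, since 12 Pcdha genes share their last exons and 1 region, and Pcdhb5, Pcdhb3 and Pcdhb4 lie at the other 2. Olfactory receptor genes had 58 of 1110 (5.23%), Vmn1r genes 10 of 231, Vmn2r genes 10 of 124, prolactin family genes 3 of 25, Serpin genes 3 of 63, Cyp2 genes 3 of 56 and ribosomal protein genes 2 of 85. None of 39 Hox genes had one.

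**Figure D5:**
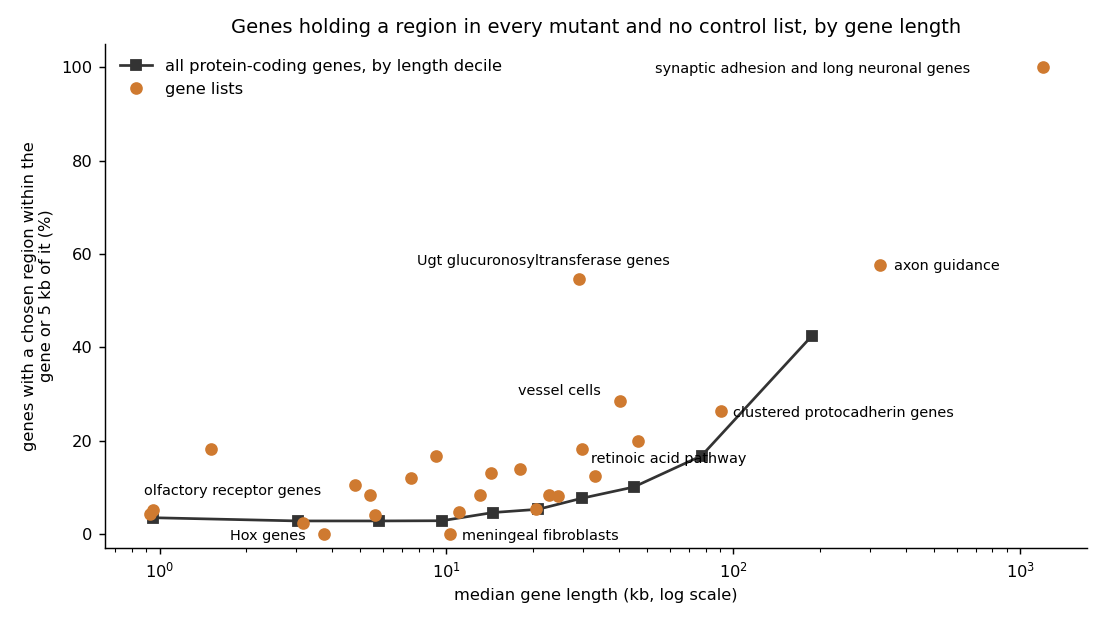
Percent of genes with a chosen region inside the gene or within 5 kb (y axis) against median gene length in kb (x axis, logarithmic), for all protein-coding genes in 10 length groups (squares and line) and for the 26 gene lists (points, the ones the text turns on named). The line stays between 2.82% and 3.51% over the 4 groups of shortest genes and then climbs to 42.5% in the longest, and the retinoic acid list stands at 12.5%; lists mix genes of many lengths, so a point need not fall on the line.

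A promoter window was touched by 2.42% of chosen regions and 5.73% of the regions of every mutant list with a control peak. It was 1.62% for all merged regions and 1.09% for the end-to-end windows. These classes differ in width, with medians of 1693, 3537, 808 and 679 bases. The chosen regions cover 0.433% of the chromosomes. Of 32619 RefSeq promoter windows, 173 (0.53%) of 154 genes were touched by 144 chosen regions. Their median GC content was 51%, against 53% over all windows and 54.2% for the 222 windows touched by regions of every mutant list with a control peak. Direct repeats of AGGTCA were searched on both strands with spacers of 1, 2 and 5 bases, as AGGTCANAGGTCA, AGGTCANNAGGTCA and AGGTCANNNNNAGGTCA, and no touched window held one, while 13, 3 and 3 of all windows did. With relaxed hexamers 4 touched windows (2.31%) held a repeat, against 0.592% of all windows. They were Gm35732 with a spacer of 1, Crbn with 2, and Gm39910 and Hbb-y with 5, and the 3 whose sequence is printed above can be read there. The single hexamer AGGTCA was in 17.9% of touched windows and 16.2% of all. A match is a description of the letters, and binding at these repeats was not tested.

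The regions behind the printed promoters differed in height. Hbb-y, an embryonic beta-globin gene, lay under chr7:103849073-103853410 with 5, 5 and 5 steps in mutant replicates 1, 2 and 3, and the nearest control peak was 12307 bases away. Gm35732 lay under chr13:31967884-31970035 with 5, 5 and 6 steps, and Crbn, which encodes cereblon, a substrate receptor of a ubiquitin ligase, under chr6:106798012-106800913 with 3, 3 and 10. Ugt1a1, the bilirubin-conjugating member, lay under the widest chosen region, chr1:88210965-88236354, with 7, 16 and 20 steps. Hjurp lay under chr1:88274767-88289200 with 6, 13 and 17 steps. Mutant replicate 1 was at or below both other mutant libraries in all 5.

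Of 1005 microRNA hairpins in RefSeq, 6 (0.597%) were touched by a chosen region, where the chosen regions cover 0.433% of the chromosomes. Some merged region touched 36.9%. The widest chosen region at a hairpin was at C130071C03Rik, the host of Mir9-2, at chr13:83731205-83740498. It had 5, 7 and 10 steps and no control peak within 19920 bases. miR-9 is a microRNA of neural progenitors that promotes neuronal differentiation, and the hairpin of Gm51268 on the opposite strand overlaps it. The mature sequences in this region are printed with the seed (bases 2 to 8) in capitals. A sequence each of Mir760 and Mir216a, which lie in other chosen regions, follows, and the remaining mature sequences are not printed.
mmu-miR-9-5p: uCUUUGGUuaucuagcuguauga
mmu-miR-9-3p: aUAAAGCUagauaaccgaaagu
mmu-miR-9b-3p: aUACAGCUagauaaccaaaga
mmu-miR-760-3p: cGGCUCUGggucugugggga
mmu-miR-216a-5p: uAAUCUCAgcuggcaacuguga
No 2 of these 5 share a seed. Mir760 lay under a region with 5, 5 and 5 steps at chr3:122291825-122293709, Mir216a under one with 2, 5 and 4 at chr11:28755816-28757919, Mir6899 under one with 3, 4 and 5 that stood 350 bases from a control peak, and Mir6932 under one with 4, 5 and 3.

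The 25 regions of the opposite pattern had a median width of 2477 bases, and 19 had a base covered by all 3 control lists. Their heights ran from 7 to 15 steps in control replicate 1, from 2 to 5 in control replicate 2 and from 2 to 4 in control replicate 3. Genes under them were 1700025G04Rik, Cep170b, Msra, Maco1, Rheb, a small GTPase gene of the mTOR pathway, Ttc23 and Sox6, at chr7:115577198-115580374 with 15, 2 and 3 steps. Sox6 thus held both a region of this kind and 4 chosen regions.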

How the data were processed

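CUT&RUN libraries of Myc-tagged RARα from Prom1-enriched cells were used, 3 control and 3 mutant, grouped by their titles. Per the submitters' processing notes the authors called peaks with SEACR on mm10. Version, aligner, read filters, use of the isotype libraries and scaling were not given. Each library has its own list, and each peak carries a total and a maximum signal that the authors deposited. Maximum signals within a library are whole multiples of a smallest unit, the step, which was used to give heights.

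Peaks on chromosomes 1 to 19 and X were merged from 1 shared base with Python 3.11.15, numpy 2.4.6 and pandas 2.3.3. The merging was tested on simulated data, where 40 of 40 planted regions were found. The planted sites lay well apart, so the check did not cover peaks joined only through a neighbour, as in 2625 of the real regions. Genes, promoters and microRNAs came from RefSeq on GRCm38.p6, the assembly of mm10, all read by symbol. Gene ends meant 1 kb around both ends of a protein-coding gene. A gene had a region when its span with 5 kb on each side was touched. No genome sequence was used here, so regions were read as letters only where a promoter window lay under them. The only test is the exact permutation test of list length over 6 libraries. Fixed windows describe how often any place between the first and last called base of a chromosome touches the lists. Left-out libraries describe how often regions chosen from the other 5 lists touch the list left out. Neither isolates list length, since the windows include bases whether or not reads map to them.

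Members, gene lists and rules were chosen with earlier results of these data known. Named were the 12 regions of highest rank, the 12 genes with most regions and the 6 densest, 11 genes of the title's pathways, up to 6 genes per list of the 26, the 8 loci with most regions, regions at promoters by rank, and regions nearest the border; not every one is printed, and 1 gene is not reported here. Alternatives covered list length, peak height, overlap, gene windows and each library left out.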

Additional observations from a re-analysis of the deposited data

How the results depend on the processing

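The number of chosen regions followed the lists. Without 1 library at a time it ranged from 6020 to 112005, the highest without mutant replicate 1, and the opposite pattern from 25 to 697, the highest without control replicate 1. Equal-length lists gave 75 chosen and 9 opposite regions, 73 of the 75 touching a region of the full lists, with 32 loci, 34 genes, 37.3% in genes and 16% at gene ends. Equal covered length gave 47 and 2, peaks of at least 4 steps 2283 and 1, a shared base of all 3 lists 3334 chosen, and cover of 50% of a replicate 1 peak 1539 and 0. Merging across 500 bp gave 10621 chosen regions. As alternatives chosen after seeing the data, lists of at most 54091 peaks gave 333 and 63, and leaving out both short control lists gave 18951 opposite regions.

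The share in genes was 40.8% by midpoint and 50.3% with all RefSeq genes, and 40.6% to 42.8% without 1 library. At gene ends it was 12.3% with 5 kb, 32.1% with 25 kb and 4.14% to 5.75% without 1 library. Loci numbered 1681 at 500 kb and 2352 to 7779 without 1 library. Genes numbered 837 by 5 kb end windows and 2160 to 13295 without 1 library. A control peak was within 1 kb of 11.1% and within 25 kb of 92.7%, and within 5 kb of 14.1% to 41.5% without 1 control library, lowest without control replicate 1. By gene end windows the lists gave 0% for Sox and Cyp2 genes, 4.17% for neurogenesis, 4% for Wnt, 15.4% for axon guidance, 3.33% for long neuronal genes, 9.32% for Zfp and 5.26% for protocadherin genes. By gene span alone they gave 0% for housekeeping and microglia and 1.62% for olfactory receptors. Heights as within-list percentiles are on another scale and gave no comparable value.

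List length differed by 3.18 (log2) with a replicate block too, with an exact sign-flip p of 0.5, and by 2.02 to 4.92 without 1 library (exact permutation p from 0.2 to 0.5). Deviations of same-numbered libraries in 1 Mb bins correlated at -0.16, -0.06 and -0.15, and those of other pairs at -0.08 to 0.16. Each deviation was taken from the mean of a group's 3 lists, which differ widely in length. The values therefore cannot show whether libraries were prepared in pairs. The labels do not say that the numbers pair libraries, and they were not taken to. The depth is unknown, and a place without a peak in a list, short or long, is not shown to be unbound.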
